A study of Mus musculus with 66 samples.

Results

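Matrix metalloproteinases (MMPs) and the tissue inhibitors of metalloproteinases (TIMPs) were followed through differentiation of C2C12 cells. These are a mouse myoblast line that fuses into multinucleate myotubes when serum is lowered. The 9 genes described here were taken by name from the mRNA-Seq table of 22489 genes. They comprise 6 MMP genes (Mmp2, Mmp3, Mmp9, Mmp11, Mmp14 and Mmp23) and 3 inhibitor genes (Timp1, Timp2 and Timp3). Of the 9, 6 had a mean of at least 1 FPKM (mapped fragments scaled to transcript length and to library size) over all libraries and were tested among 10954 genes. Mmp3, Mmp9 and Mmp23 lay below that level.

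The samples were 10 lines, each with 1 growth and 1 differentiated library. WT cells carried no transgene. The other 9 lines carried an N-terminally GFP-tagged H3t, H3.1, H3.2, H3mm7, H3mm11, H3mm12, H3mm13, H3mm16 or H3.3 gene behind a doxycycline-inducible (Tet-On) promoter. They had been integrated with a transposon, selected with doxycycline and G418 and sorted for GFP, and there was 1 line for each H3. An effect of the H3 protein and a property of the line that carries it therefore cannot be told apart. Columns written H3mmT were taken as the H3t line, since no other name in the labels fits them. Growing cells were kept in 20% fetal bovine serum and harvested before confluence. To induce differentiation, confluent cultures received medium with 2% horse serum, and RNA was taken after 48 h. The states thus differ in serum and cell density as well as in differentiation, and these cannot be told apart. The line was used as the replicate, since no line was sequenced more than once in a state. The main fits did not pair the growth and differentiated libraries of a line. Their p-values therefore measure the spread between lines within a state.

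MMPs are zinc-dependent endopeptidases that are made as inactive precursors and cut matrix proteins, growth factors and cell surface proteins once the propeptide is removed. TIMPs bind the active site of MMPs and block it. The pair of roles meets in a complex at the cell surface, where membrane-bound Mmp14 (MT1-MMP) holds Timp2, which in turn docks the Mmp2 precursor for cleavage by a neighbouring Mmp14 molecule. Myoblasts use such proteases when they migrate, remodel the basement membrane and fuse.

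All libraries had 13858 to 16865 genes above 0 FPKM. The 8 markers of differentiated muscle, among them Myog and Ckm, were all called higher after differentiation, and their summed level rose from 6.57 to 193 FPKM in growth to 4801 to 25209 FPKM in differentiated cells. The myoblast markers Myod1, Myf5, Des and Cdh15 were above 0 in every library, and Pax7, which marks satellite cells, stayed below 1 FPKM. Of 5 macrophage markers only Cd68 passed the filter, and Emr1 was at 0 in all 20 libraries. Of 4 endothelial markers only Cdh5 passed (Pecam1 at most 0.221 FPKM), and it fell by 1.02, with a summed level of the list of at most 7.68 FPKM in growth and 2.06 FPKM in differentiated cells. Of 4 adipocyte markers only Lpl passed (Plin1 at 0 in 18 libraries), and it rose by 1.29. Among 5 fibroblast markers the collagens Col1a1 and Col3a1 passed, while Thy1 was at 0 in 18 libraries. Sox9 was the 1 of 5 chondrocyte or osteoblast markers that passed. Both WT libraries stood apart from the rest. Their FPKM summed to 409319 and 465247 against 583613 to 894105 in the GFP-H3 lines, and 209 tested genes lay more than 8-fold below the lowest GFP-H3 library in both. WT values are therefore given separately where they bear on a result.

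The first comparison asked how the proteases and inhibitors changed when the cells differentiated. Mmp11 and Mmp2 rose, Timp1 and Timp3 fell, and neither Mmp14 nor Timp2 was called. In limma, on log2(FPKM + 1), a call needed a difference of 1 or more in size together with a Benjamini-Hochberg adjusted p under 0.05. Of the 6 members tested, 4 were called, 2 higher and 2 lower. Over all 10954 genes tested, 17.3% were called, 8.87% higher and 8.41% lower. In bulk RNA, fewer cells that express a gene and less RNA per cell cannot be told apart.

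**Figure D1:**
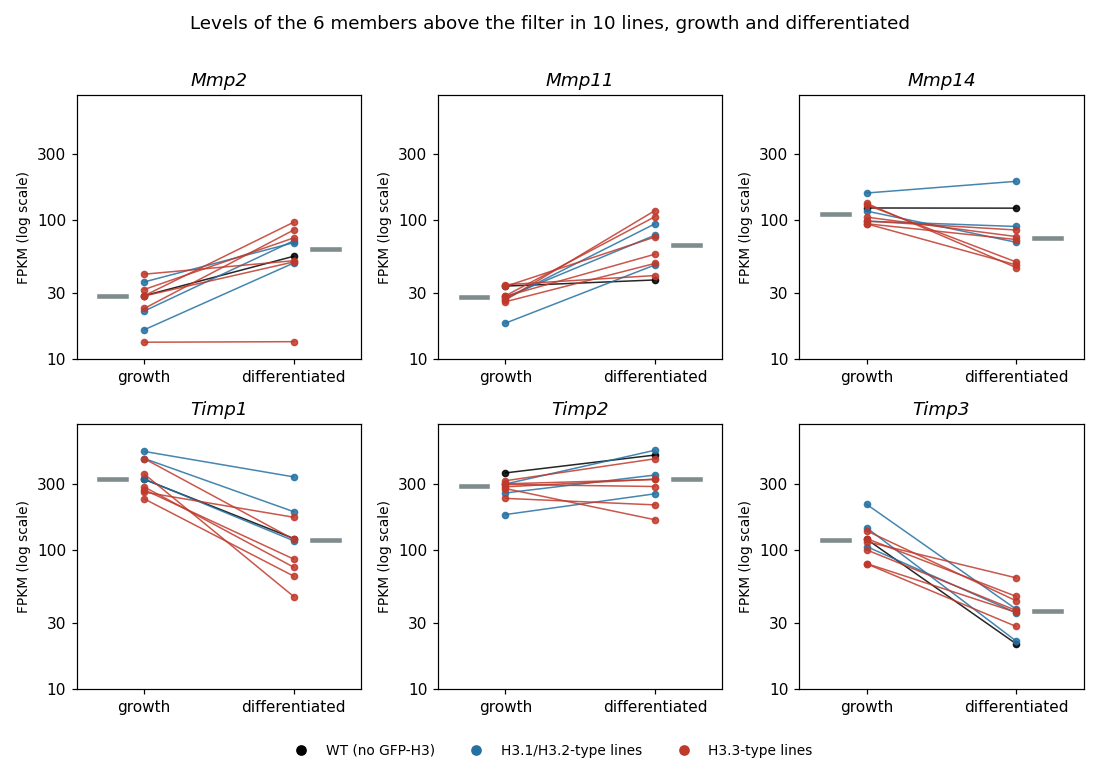
FPKM on a log axis in growth and differentiated cells for the 6 members above the filter, with 1 line drawn for each of the 10 cell lines (black, WT; blue, H3.1/H3.2-type; red, H3.3-type) and a grey bar for the median of 10. The values of Mmp11 and of Timp3 do not overlap between the states, and the Mmp2 line near 13 FPKM in both states is H3mm7.

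Mmp11 (stromelysin-3) is cleaved by furin inside the cell and leaves it as an active enzyme, and it is known from stromal cells around tumours and from tissue remodelling. Its FPKM in growth was 33.7 in WT, 28.0 in H3.1, 27.2 in H3.2, 18.2 in H3t, 28.7 in H3.3, 33.5 in H3mm7, 26.8 in H3mm11, 34.5 in H3mm12, 26.0 in H3mm13 and 28.5 in H3mm16. In differentiated cells it was 37.3, 78.4, 94.6, 47.9, 106.6, 76.1, 117.9, 40.2, 49.1 and 57.2 in the same order. The highest growth value lay below the lowest differentiated value, so the states did not overlap, which was also the case for 17.6% of all genes tested. The growth levels were narrow apart from the low H3t line, whereas the differentiated levels spread over 3.16-fold. The mean rose from 28.5 ± 4.77 to 70.5 ± 28.6 FPKM (SD, n = 10), a difference of 1.19 on the log2 scale (SE 0.19, limma adjusted p = 1.80e-05). WT and H3mm12 rose least, by 0.14 and 0.21, and H3mm11 most, by 2.10. The 3 lines that the study sets apart by their expression after differentiation, H3.3, H3mm7 and H3mm11, held 106.6, 76.1 and 117.9 FPKM, against 94.6 in H3.2 and 78.4 in H3.1. The study grouped the 3 lines by positive scores on a principal component. It read negative scores as more expression of genes related to the extracellular matrix. No test was made of these lines, here or for the other members, because they were grouped from these libraries. How many of all genes tested set the same 3 lines apart was not counted. Their summed differentiated muscle markers were 4810 to 6556 FPKM, against 18582 to 25209 FPKM in WT, H3mm12, H3mm13 and H3mm16. H3.1, H3.2 and H3t had 4801, 12249 and 5571 FPKM. The part of these markers in the member values was not tested.

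Mmp2 (gelatinase A) degrades basement membrane collagen and gelatin and is the enzyme that the Mmp14 and Timp2 complex activates. In growth it lay at 28.7 FPKM in WT, 36.1 in H3.1, 16.4 in H3.2, 22.3 in H3t, 31.9 in H3.3, 13.3 in H3mm7, 28.7 in H3mm11, 41.1 in H3mm12, 23.3 in H3mm13 and 28.7 in H3mm16. In differentiated cells the values were 55.3, 69.3, 49.5, 71.5, 75.0, 13.4, 50.4, 51.4, 85.5 and 97.3 FPKM in that order. Only the differentiated H3mm7 library made the ranges overlap, and without it every differentiated value exceeded every growth value. The mean rose from 27.04 ± 8.50 to 61.9 ± 23.4 FPKM (SD, n = 10), a difference of 1.09 (SE 0.27, limma adjusted p = 0.00154), in 10 of 10 lines. The H3mm7 line changed by 0.01 and had the lowest Mmp2 in both states. Without that line the difference was 1.21. H3mm13 and H3mm16, with 1.83 and 1.72, rose most.

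Timp3, which is held in the extracellular matrix and also blocks ADAM and ADAMTS proteases, fell in every line. Its growth level was 119.6 FPKM in WT, 106 in H3.1, 145 in H3.2, 213 in H3t, 115 in H3.3, 121 in H3mm7, 137 in H3mm11, 79.5 in H3mm12, 79.8 in H3mm13 and 100.1 in H3mm16. After differentiation it was 21.1, 35.3, 22.1, 37.4, 62.9, 46.3, 43.1, 28.1, 35.5 and 36.7 FPKM. All differentiated values lay below all growth values. The mean fell from 122 ± 38.6 to 36.9 ± 12.3 FPKM (SD, n = 10), by 1.70 on the log2 scale (SE 0.19, limma adjusted p = 1.09e-07). Among the members this was the largest difference and the smallest p. The highest differentiated values were those of H3.3, H3mm7 and H3mm11, the lines grouped from these libraries, with no other line above 37.4 FPKM. The lowest was that of WT. H3.2, H3t and WT fell most, by 2.66, 2.48 and 2.45, and H3.3 least, by 0.86.

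Timp1 is the secreted inhibitor that pairs with Mmp9 and responds to serum and growth factors in many cells. It was among the most abundant members in growth, at 322 FPKM in WT, 511 in H3.1, 324 in H3.2, 455 in H3t, 454 in H3.3, 261 in H3mm7, 352 in H3mm11, 271 in H3mm12, 233 in H3mm13 and 284 in H3mm16. In differentiated cells it stood at 121, 335, 116, 188, 119, 172, 46.1, 85.9, 64.7 and 75.0 FPKM. The states overlapped only through the differentiated H3.1 library, which exceeded 6 of the 10 growth values. The mean fell from 347 ± 95.1 to 132 ± 84.3 FPKM (SD, n = 10), by 1.56 (SE 0.27, limma adjusted p = 4.48e-05), with a lower value in 10 of 10 lines. Differentiated levels of Timp1 spread over 7.27-fold from H3mm11 to H3.1, close to the 7.25-fold of Mmp2. H3mm11 fell by 2.90, while H3mm7 and H3.1 fell by 0.60 and 0.61.

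Mmp14, the membrane-type enzyme that cleaves fibrillar collagen and the Mmp2 precursor, was the most abundant MMP of the table's members in growth. Its growth values were 123 FPKM in WT, 158 in H3.1, 117 in H3.2, 98.9 in H3t, 129.7 in H3.3, 133 in H3mm7, 94.7 in H3mm11, 106 in H3mm12, 99.0 in H3mm13 and 94.8 in H3mm16. Differentiated cells had 123, 191, 69.7, 90.5, 50.3, 45.8, 47.9, 76.6, 85.4 and 72.9 FPKM. The ranges overlapped, since H3.1 was higher after differentiation and WT lay at 123 FPKM in both states. The mean difference was -0.55 (SE 0.20, limma adjusted p = 0.0263), with a lower value in 9 of 10 lines, but its size was under 1 and Mmp14 was not called. Its adjusted p ran from 0.00259 without H3.1 to 0.0767 without H3.3, and it was also above 0.05 without H3.2, H3mm7 or H3mm11. The 3 lowest differentiated levels were those of H3.3, H3mm7 and H3mm11, the lines grouped from these libraries.

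Timp2, which inhibits MMPs and also serves as the adaptor for Mmp2 on Mmp14, had the smallest mean difference between the states among the 6 tested members. It lay at 358 FPKM in WT, 298 in H3.1, 257 in H3.2, 179.6 in H3t, 296 in H3.3, 276 in H3mm7, 235 in H3mm11, 315 in H3mm12, 285 in H3mm13 and 299 in H3mm16 during growth. In differentiated cells the values were 482, 522, 346, 254, 286, 165, 211, 453, 323 and 321 FPKM. The ranges overlapped broadly. The difference was 0.20 (SE 0.18, 95% interval -0.18 to 0.59, limma adjusted p = 0.365), with 7 lines higher and 3 lower. The 3 lower lines were H3.3, H3mm7 and H3mm11, which were grouped from these libraries, and H3mm7 fell most, by 0.74.

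**Figure D2:**
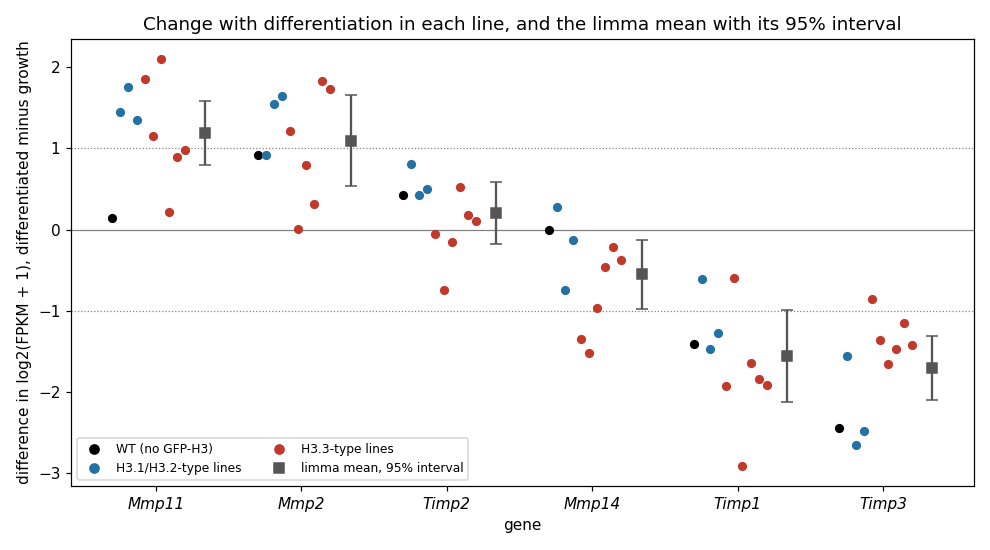
Difference in log2(FPKM + 1) between differentiated and growing cells for each of the 10 lines (points, WT first, then the H3.1/H3.2-type and the H3.3-type lines) and the limma mean with its 95% interval (grey squares). The interval is from the fit that does not pair the libraries of a line. Dotted lines mark a difference of 1 in either direction. Mmp11 and Mmp2 lie above 0 in 10 of 10 lines and Timp1 and Timp3 below 0 in 10 of 10.

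The remaining MMPs were near the floor of the table. Mmp23, a type II membrane protease, was at most 0.203 FPKM in growth, with 3 libraries at 0, and between 0.0889 and 0.383 FPKM in differentiated cells. It was higher after differentiation in 10 of 10 lines, although both ranges overlapped through H3.1 and H3mm11 in growth. With no filter on low values its difference was 0.26 (limma adjusted p = 0.000150), far below the size needed for a call, on a scale where adding 1 FPKM compresses such low levels. Mmp9 (gelatinase B), the inducible gelatinase of leukocytes and migrating cells, reached 0.269 FPKM in differentiated H3mm7 and was listed at 0 in both WT libraries. It was higher after differentiation in 6 lines and lower in 3. Mmp3 (stromelysin-1), an activator of other MMP precursors, was listed at 0 in 16 of 20 libraries and reached 0.0276 FPKM in differentiated H3mm13. The read depth of the libraries is unknown, so how many reads stood behind these values could not be given.

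**Figure D3:**
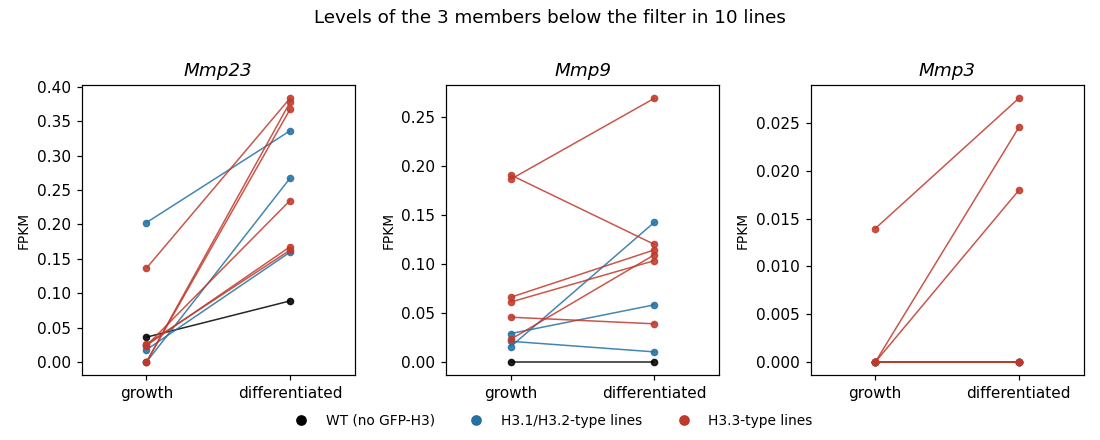
FPKM of Mmp23, Mmp9 and Mmp3 in growth and differentiated cells of 10 lines, each panel with its own linear axis. Mmp23 is higher after differentiation in 10 of 10 lines but at most 0.383 FPKM, and Mmp3 is at 0 in 16 of 20 libraries.

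Sequence upstream of the transcription start was examined for the members that were called and for Mmp3. RefSeq promoter windows (GRCm38.p6) were at hand for 7 of the 9 members, with none for Mmp2 and Mmp9. The 250 bases before the start are shown in the direction of transcription for the called genes Mmp11, Timp1 and Timp3, and for Mmp3, which was hardly detected. Capitals mark matches, on either strand, to AP-1 (TGACTCA), the GC box (GGGCGG), the CCAAT box (CCAAT) and the TATA box (TATAAA). The windows are chr10:75932503-75932752 on the minus strand (Mmp11), chrX:20869916-20870165 on the plus strand (Timp1), chr10:86300162-86300411 on the plus strand (Timp3) and chr9:7445572-7445821 on the plus strand (Mmp3).
Mmp11: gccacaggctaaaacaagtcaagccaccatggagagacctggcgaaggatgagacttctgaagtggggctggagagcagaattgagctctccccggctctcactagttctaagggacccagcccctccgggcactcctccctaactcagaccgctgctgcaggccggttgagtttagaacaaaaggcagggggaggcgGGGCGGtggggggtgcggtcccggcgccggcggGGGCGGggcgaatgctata
Timp1: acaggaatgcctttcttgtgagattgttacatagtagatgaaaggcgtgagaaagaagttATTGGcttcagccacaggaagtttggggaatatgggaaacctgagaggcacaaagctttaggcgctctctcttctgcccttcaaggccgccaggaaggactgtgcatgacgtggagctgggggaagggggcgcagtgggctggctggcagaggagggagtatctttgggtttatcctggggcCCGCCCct
Timp3: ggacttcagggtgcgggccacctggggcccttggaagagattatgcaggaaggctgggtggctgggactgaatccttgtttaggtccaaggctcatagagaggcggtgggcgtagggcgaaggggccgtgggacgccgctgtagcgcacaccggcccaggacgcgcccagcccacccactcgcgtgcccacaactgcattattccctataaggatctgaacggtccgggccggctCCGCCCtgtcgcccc
Mmp3: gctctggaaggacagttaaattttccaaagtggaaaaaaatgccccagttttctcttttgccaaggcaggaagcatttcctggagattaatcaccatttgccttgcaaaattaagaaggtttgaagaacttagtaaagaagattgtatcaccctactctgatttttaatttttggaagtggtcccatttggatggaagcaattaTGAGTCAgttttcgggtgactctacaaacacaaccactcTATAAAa

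The Mmp3 window held the AP-1 match, 46 bases before the start and read here from the opposite strand as TGAGTCA. It also held the TATAAA match, 7 bases before the annotated start. No window of the 6 other members held either match. Of all 32851 windows, 4.46% held the AP-1 letters, 12.4% the TATA letters, 32.7% a GC box and 33.8% a CCAAT box. The window of Mmp3 had a GC content of 37.6% and 1 CpG, against medians of 52.4% and 6 over all windows. Mmp11 had 63.2% GC and 14 CpGs with 2 GC boxes, Timp3 had 65.6% GC and 18 CpGs with 1 GC box, and Timp1 had 54.4% GC and 6 CpGs with 1 GC box and 1 CCAAT box. The 3 windows of called genes, Mmp11 that rose and Timp1 and Timp3 that fell, thus each held a GC box. Mmp14 and Timp2 held GC and CCAAT boxes as well, and both Mmp23 windows held none of the 4 motifs. No matches overlapped in the windows shown. A match is a description of letters and not a site of binding.

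The genes lie apart in the mouse genome (mm9). Mmp11 is on chromosome 10 at 75385967 to 75400678, Timp3 on chromosome 10 at 85763117 to 85812251, Mmp2 on chromosome 8 at 95351227 to 95377316, Mmp14 on chromosome 14 at 55050441 to 55060095, Timp1 on chromosome X at 20447292 to 20451861 and Timp2 on chromosome 11 at 118162383 to 118217054. Mmp11, Mmp14, Timp1 and Timp3 overlap a gene on the opposite strand, and a strand-specific count is not stated for these libraries. Timp3 shares 21.3% of its exonic bases with Syn3, which was at most 0.210 FPKM. Timp1 lies within Syn1, at 6.16 to 21.2 FPKM, without a shared exonic base. Mmp11 overlaps Chchd10, which reached 41.7 FPKM in differentiated cells and at most 1.99 in growth, also without a shared exonic base. Mmp11 further shares 73 exonic bases (2.76%) with Gm867 on its own strand, which was not analysed here. Mmp14 overlaps Gm11067, also not analysed, and Timp2 overlaps BC100451 on its own strand (at most 0.9485 FPKM), neither with a shared exonic base. The part of these overlaps in the member values was not tested.

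Because FPKM is scaled to transcript length, levels can also be compared between the members. The summed inhibitor level exceeded the summed MMP level in every library. In growth the sum of the 3 TIMPs was 597 to 915 FPKM (median 725) and that of the 6 MMPs 139 to 222 FPKM (median 170.2). After differentiation the TIMP sum was 300.1 to 892 FPKM (median 474), lower in 10 of 10 lines. With quantile normalization it was lower in 9 of 10. The MMP sum was 136 to 339 FPKM (median 216), higher in 8 lines, also with quantile normalization or libraries scaled to the same median, and lower in H3mm7 and H3mm12. The ratio of TIMP to MMP thus ranged from 3.66 (H3mm7) to 6.08 (H3t) in growth and from 1.39 (H3mm11) to 3.36 (H3mm12) in differentiated cells. It was lower in 10 of 10 lines. These are transcript levels, and neither protein nor protease activity was measured.

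**Figure D4:**
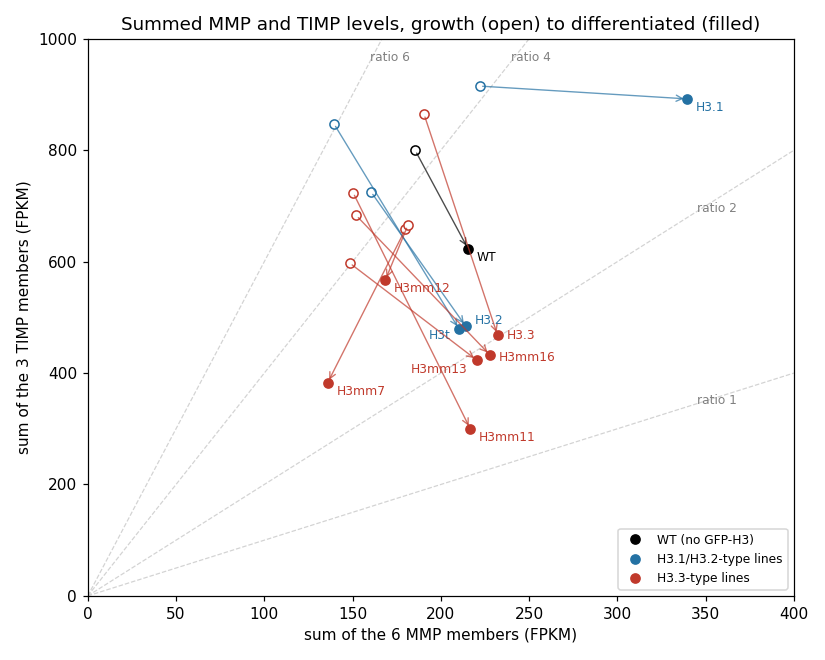
Summed FPKM of the 3 TIMP members against that of the 6 MMP members, from growth (open circles) to differentiated cells (filled circles, named by line). Dashed lines mark TIMP to MMP ratios of 1, 2, 4 and 6. All 10 arrows cross to a lower ratio, and H3.1 keeps the highest sums in both states.

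The make-up of both sums shifted along with their size. Timp2 supplied 21.2% to 47.6% of the TIMP sum in growth and 43.0% to 79.9% after differentiation, higher in 10 of 10 lines. Timp1 supplied 39.0% to 55.9% in growth and 15.1% to 44.9% after differentiation, lower in 9 lines and higher in H3mm7. Timp1 was the most abundant member in 5 growth libraries and Timp2 in the other 5, whereas Timp2 led in 9 of 10 differentiated libraries and Timp1 in that of H3mm7. Among the MMPs, the share of Mmp14 fell in 10 of 10 lines, from 58.3% to 73.9% in growth to 21.6% to 56.9% after differentiation. The share of Mmp2 rose in 10 of 10 lines. Mmp11 made up 55.9% of the MMP sum in differentiated H3mm7, 54.4% in H3mm11, 45.9% in H3.3 and 44.2% in H3.2, and at most 25.1% in the other lines. The ratio of Timp2 to Mmp14, the partners in Mmp2 activation, was 1.82 to 3.15 in growth and 2.73 to 5.91 after differentiation, higher in 10 of 10 lines.

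**Figure D5:**
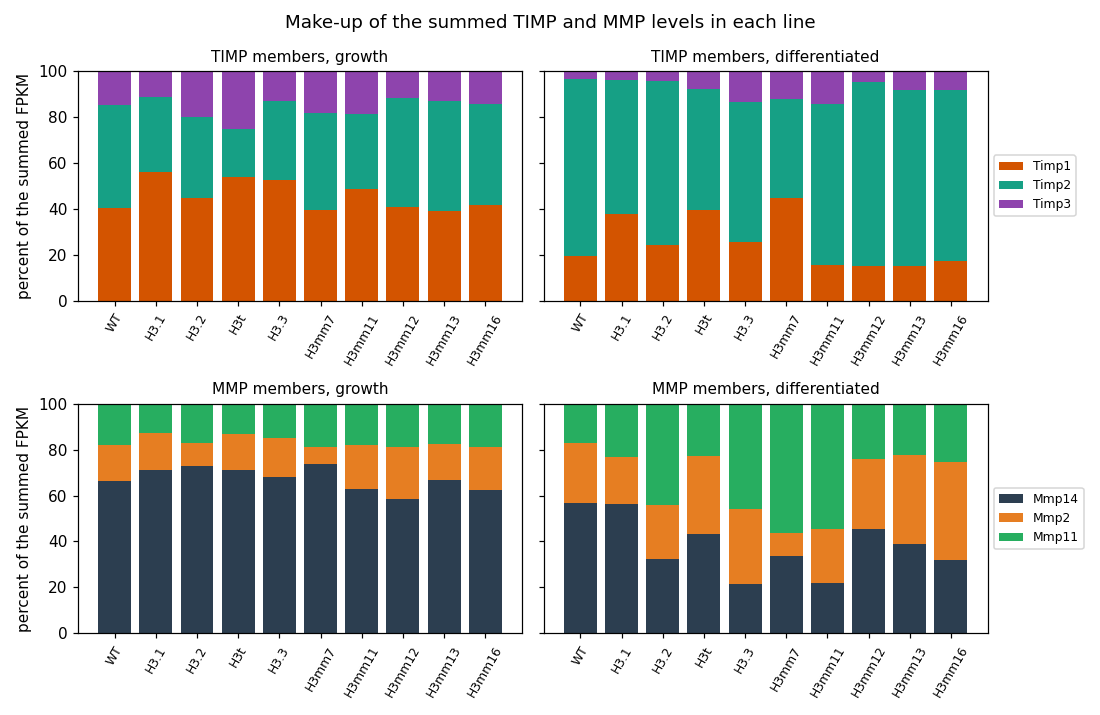
Percent of the summed FPKM supplied by each TIMP (top) and by the 3 abundant MMPs (bottom) in growing (left) and differentiated (right) cells of each line. Timp2 takes a larger share of the TIMP sum after differentiation in 10 of 10 lines, and Mmp14 a smaller share of the MMP sum.

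Lines that stood high for one member did not stand high for all. Over the 20 libraries, with log2 values centred within each state, Pearson's r between members ran from -0.64 to 0.73 over 15 pairs, 7 of them above 0. These are descriptions over 10 lines with 2 libraries each. Mmp14 and Timp2 had the highest value (0.73, and 0.80 over the 10 differentiated libraries), followed by Mmp14 and Timp1 (0.53). Timp2 and Timp3 had the lowest (-0.64, with -0.76 in growth and -0.61 in differentiated cells). Mmp11 and Timp2 went together in growth (0.87) and apart after differentiation (-0.45). In growth the H3t line had the lowest level of both genes (18.2 and 179.6 FPKM), and r without it was not computed.

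The next comparison asked whether lines with an H3.3-type protein (H3mm7, H3mm11, H3mm12, H3mm13, H3mm16 and H3.3) differed from lines with an H3.1/H3.2-type protein (H3t, H3.1 and H3.2). No member was called in growth, in differentiated cells or in the interaction of type and differentiation. Over all genes tested, 0.21% were called in growth, 0.749% in differentiated cells and 0% in the interaction, where 1002 of 10954 genes had an unadjusted p below 0.05. With the line as a replicate block the interaction had 55 calls, none of them a member, and the lowest adjusted p of a member was 0.11 (Timp3).

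In growth the 95% intervals of all 6 differences included 0. They reached from -1.06 to 0.02 for Timp3, with 79.5 to 137 FPKM in the 6 H3.3-type lines and 106 to 213 in the 3 others. For Timp1 the interval was -1.23 to 0.26, for Mmp14 -0.74 to 0.40, for Timp2 -0.32 to 0.80, for Mmp11 -0.32 to 0.89 and for Mmp2 -0.82 to 1.12. Differences of 1 on the log2 scale were thus not excluded for Mmp2, Timp1 or Timp3. The growing lines also differed in muscle markers. Their summed level was 67.9 to 193 FPKM in the 6 H3.3-type lines and 6.57 to 33.8 FPKM in the 3 others, all 8 genes had a positive difference, and Myog was called (2.56, limma adjusted p = 0.0245). The call of Myog was lost without H3.1, H3t, H3mm7, H3mm13 or H3mm16 (limma adjusted p up to 0.144). The part of these markers in the member values was not tested, here or in the interaction.

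In differentiated cells the largest type difference among members was that of Timp1. Its values were 172, 46.1, 85.9, 64.7, 75.0 and 119 FPKM in H3mm7, H3mm11, H3mm12, H3mm13, H3mm16 and H3.3, and 335, 116 and 188 FPKM in H3.1, H3.2 and H3t. The types overlapped through H3.2, H3.3 and H3mm7. The difference, H3.3-type minus H3.1/H3.2-type, was -1.17 (95% interval -1.92 to -0.43, limma adjusted p = 0.0779). It was called without H3.2 (-1.54, limma adjusted p = 0.0253) and without H3mm7 (-1.37, limma adjusted p = 0.0365), and was smallest without H3.1 (-0.78), the line with the highest value. Mmp14 differed by -0.79 (95% interval -1.36 to -0.22, limma adjusted p = 0.112), with 45.8 to 85.4 FPKM against 69.7, 90.5 and 191 FPKM, and was called without H3.2 (-1.09, limma adjusted p = 0.0362), whereas without H3.1 it was -0.37. For Timp2 the interval was -0.92 to 0.20, for Timp3 -0.14 to 0.93, for Mmp2 -1.20 to 0.74 and for Mmp11 -0.64 to 0.57. The summed level of the differentiated muscle markers was 4801, 12249 and 5571 FPKM in H3.1, H3.2 and H3t. It was 6556, 6335 and 4810 FPKM in H3.3, H3mm7 and H3mm11. In H3mm12, H3mm13 and H3mm16 it was 25209, 19047 and 18582 FPKM, and in WT 19380 FPKM. The fibroblast markers summed to 571, 339.95 and 446 FPKM in H3.1, H3.2 and H3t, against 95.4 to 327 FPKM in the H3.3-type lines. Col1a1 was called lower in the H3.3-type lines (-3.22, limma adjusted p = 0.0317). Col3a1, the most abundant fibroblast marker, was not called (-1.22, limma adjusted p = 0.0625). The adipocyte markers summed to 4.73, 1.83 and 5.86 FPKM against 9.16 to 34.4 FPKM, almost all of it Lpl. Lpl was called higher (2.04, limma adjusted p = 0.0223), while Adipoq, Cfd and Plin1 reached at most 0.110, 0.0638 and 0.0375 FPKM. Plin1 was at 0 in 18 of 20 libraries. Col1a1 stayed called in 3 of 9 fits that left out a line (without H3t, H3mm7 or H3mm12), with limma adjusted p up to 0.122. Lpl stayed called in 6 of 9 (not without H3.1, H3t or H3.3), with limma adjusted p up to 0.0756. The part of the 3 marker lists in these differences was not tested.

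The change with differentiation itself differed by 0.91 between types for Timp3 (95% interval 0.15 to 1.67, limma adjusted p = 0.50), which fell by 0.86 to 1.65 in H3.3-type lines and by 1.56 to 2.66 in the others. Timp1, Mmp14 and Timp2 had differences of -0.69, -0.62 and -0.60, with intervals that included 0.

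WT cells were compared by position only, with 1 library a state. For the 6 members above the filter, WT lay within the range of the 9 GFP-H3 lines in 9 of 12 combinations of gene and state. Timp2 in growth (358 FPKM) was above the highest GFP-H3 line (315 FPKM). Mmp11 (37.3 FPKM) and Timp3 (21.1 FPKM) in differentiated cells were below the lowest (40.2 and 22.1 FPKM). The share of such positions over all genes tested was not counted. Among the 10 libraries of a state 1 is always highest and 1 lowest, so no WT difference is read from these positions.

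Other genes of the pathway were taken from lists and are given by their counts, beside the 17.3% of all genes called with differentiation. Of 18 further MMP and TIMP genes, 3 passed the filter. Mmp19 rose by 1.52 (limma adjusted p = 1.68e-05), from a median of 0.579 to 3.43 FPKM. Mmp15, a second membrane-type enzyme, rose by 1.04 (limma adjusted p = 0.00487), from 3.27 to 7.25 FPKM. Mmp28 was not called, and Timp4 had a mean of 0.432 FPKM.

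Of 13 genes for MMP activation and surface control, 1 was called higher, 3 lower and 9 neither way (median difference -0.31). Plaur, the urokinase receptor, fell by 2.68 (SE 0.37), and Cav1, a coat protein of caveolae, by 2.04 (SE 0.21). Serpine2 (protease nexin-1) rose by 1.40 (SE 0.39). Furin, which activates Mmp11 and Mmp14, had a median of 29.7 FPKM in growth and 23.0 FPKM after differentiation and was not called, nor was Reck, a membrane-anchored MMP inhibitor, at 0.999 and 1.11 FPKM. Between H3 types, Cd44, a hyaluronan receptor that anchors MMPs at the surface, was lower in differentiated H3.3-type lines (-1.24, limma adjusted p = 0.00575), and so was Plat, tissue plasminogen activator (-2.09, limma adjusted p = 0.0257). These were the 2 calls among the 13 genes in that comparison, in which 0.749% of all genes were called. Cd44 stayed called in 9 of 9 fits that left out a line, and Plat in 5 of 9, not without H3.1, H3t, H3.3 or H3mm11 (limma adjusted p up to 0.122).

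The ADAM and ADAMTS proteases, several of which Timp3 inhibits, held 5 genes called higher and 1 lower among 13 (median difference 0.27). Adamts1 rose by 2.37 (SE 0.19), from a median of 15.0 to 78.4 FPKM, Adamts5 by 2.07 (SE 0.23) and Adam19 by 1.66 (SE 0.16). Adamts4 rose by 1.68 (SE 0.23). Adamts1, Adamts4 and Adamts5 cleave aggrecan and versican. Among 15 non-collagen matrix genes, 2 were called higher, 2 lower and 11 neither way (median difference 0.53). Dcn (decorin) rose by 4.50 (SE 0.41) and the basement membrane gene Nid2 by 1.13 (SE 0.36), while Tnc (tenascin C) fell by 2.56 (SE 0.43) and Spp1 (osteopontin) by 1.04 (SE 0.24). Of 11 AP-1 and Ets transcription factors, which are known regulators of several MMP genes, 1 was called higher and 3 lower (median difference 0.26). Fosl1 fell by 3.24 (SE 0.22), Etv4 by 2.80 (SE 0.25) and Ets1 by 1.07 (SE 0.11), and Fos rose by 1.61 (SE 0.42). Over all tested genes the median difference was 0.04.

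The genes whose pattern over the 20 libraries was most like that of a member were found by Pearson's r of log2 values centred within each state. They are the 3 highest of all tested genes for each member and are a description. For Mmp14 they were Arhgef40 (0.94), Arhgef19 (0.92) and Angptl2 (0.92). For Timp2 they were Gatsl2 (0.93), Add1 (0.89) and Ildr2 (0.88), and for Timp1 Tubb5 (0.91), Kntc1 (0.91) and Coro1c (0.90). For Mmp11 they were Tnfaip2 (0.87), Pi16 (0.84) and Stard5 (0.84), for Timp3 Sgk1 (0.82), Pkp2 (0.77) and Glud1 (0.74), and for Mmp2 Rab11fip5 (0.80), Tfcp2 (0.79) and Tspan13 (0.78). Tubb5, a beta-tubulin, and Kntc1, a kinetochore protein, fell with differentiation by 2.26 (SE 0.16) and 2.77 (SE 0.18), as did the actin-binding Coro1c by 1.34 (SE 0.14).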

How the data were processed

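mRNA-Seq libraries of 10 C2C12 lines in 2 states (20 of the 66 samples) were used. FPKM were deposited as the authors made them, with cuffdiff of Cufflinks 2.0.1 after TopHat 2.0.8 mapping to mm9, as the submitters' processing notes list. The study's methods do not say how WT reads were mapped. FPKM are scaled to transcript length and library size and hold no counts. Read depth is unknown, so no counting interval was given. The deposited 3′-seq tables hold RPM of histone genes only and were not used, and ChIP-Seq and its input were not analysed here.

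Genes with a mean of at least 1 FPKM were fitted on log2(FPKM + 1) with limma 3.58.1 (trend and robust settings, R 4.3.3), with Benjamini-Hochberg adjustment over 10954 genes and calls at adjusted p below 0.05 and a log2 difference of at least 1. Contrasts were differentiated against growth (10 and 10 libraries), and, over 18 libraries, the 6 lines with H3.3-type proteins minus the 3 with H3.1/H3.2-type proteins, per state and as interaction. The 2 libraries of a line are the same cell line, and their deviations from the state means correlated at 0.27 to 0.88 in 10 of 10 lines, so a fit with the line as replicate block was an alternative. Others were pseudocounts of 0.1 and 0.01 FPKM, no filter, a mean of at least 5 FPKM, quantile or median scaling, limma without trend and robust, and leaving out each line.

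Text names all members, up to 4 called genes a list by adjusted p (and genes with a stated role beside a member), 3 most similar genes a member, and markers. The values of 1 called gene of a list are not reported here. Members and lists were chosen with earlier results of these data known. The fits were run on simulated data in which every library was drawn independently. The link between the libraries of a line was thus not covered, and a pass was required for the differentiation contrast only. Gene positions are from GENCODE M1 (mm9), promoters from RefSeq (GRCm38.p6). Python 3.11.15, numpy 2.4.6, pandas 2.3.3 and matplotlib 3.10.9 were used.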

Additional observations from a re-analysis of the deposited data

Results flagged for a closer look

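Values that stood apart from the other 9 libraries of their state were sought with Dixon's ratio in 26 groups, of which 3 had one. The ratio was taken on log2 values. Chance alone flags about 1 in 20 groups if groups are independent and values normal. Here some groups are sums and ratios of the same members, and some hold ties at 0, so that rate is only a guide. Of the 3, Mmp3 was bound to stand apart because its other 9 values were 0. Mmp2 in differentiated H3mm7 cells, at 13.4 FPKM, was far below the other 9 lines, which lay at 49.5 FPKM or more. The same line also had the lowest Mmp2 in growth. Mmp11 in growing H3t cells, at 18.2 FPKM, was below the other lines, which started at 26.0 FPKM. The growth value of Mmp3 in H3mm13, 0.0140 FPKM, was the only one above 0.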

How the results depend on the processing

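The 4 members called with differentiation stayed called, in the same direction, under all 18 alternatives, and the count of genes called ran from 1429 to 2348. Calls between H3 types were less stable. In growth the 23 calls became 46 and 70 with pseudocounts of 0.1 and 0.01 FPKM, and 14 both with no filter and with a mean of 5 FPKM or more. They ranged from 2 (without H3.1) to 25 when a line was left out, and moved by over 1.5 times without any line but H3mm11 and H3mm12. In differentiated cells the 82 calls became 134 with a pseudocount of 0.1 FPKM, 39 with no filter and 49 with a mean of 5 FPKM or more, and ranged from 3 (without H3.1) to 295 (without H3.2), moving by over 1.5 times without every line but H3mm7. The interaction had 0 calls, against 2 with no filter, 1 with a mean of 5 FPKM or more, 5 with quantile normalization and 55 with the line as replicate block, and 0 to 2 without a line (2 without H3.2). The block changed no call of a member. Member calls between types were 0, and 0 to 2 without a line. Some differences between types that were not called changed sign when a line was left out, while those of Timp1, Timp2 and Timp3 kept theirs in both states. In growth Mmp14 ranged from -0.32 to 0.011 and Mmp2 from -0.10 to 0.45. In differentiated cells Mmp11 ranged from -0.31 to 0.17 and Mmp2 from -0.41 to 0.15. The cause of these moves was not tested. Directions of the summed levels were recomputed under median scaling and quantile normalization, chosen after seeing the data. The limits are 1 line for each H3, 1 library for each line and state, unknown read depth, and log2(FPKM + 1), which compresses changes of low genes.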
